A study of Mus musculus with 2 samples.

Results

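Endothelial and endocardial genes were examined in hearts of mouse embryos at embryonic day 13.5, in 1 library of the Srsf10 knockout (SRSF10-/-) and 1 of the wild type (WT). The genes are a list of 36 chosen by symbol, namely receptors, junction proteins, transcription factors and vessel-subtype genes of the endothelium, out of 17646 genes in the deposited tables. All 36 were listed in both tables. Both libraries were made from hearts of BALB/c embryos, and the gene lost in the knockout, Srsf10, codes for an SR-family regulator of pre-mRNA splicing. The labels describe the knockout allele no further than the genotype and do not say how many embryos gave each library or of which sex. Since each genotype is a single library, there is no replicate check and nothing was tested: higher and lower compare one library with the other. Intervals given after a fold are exact 95% intervals of the read ratio and cover counting error only.

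The endothelium lines all blood vessels, and in the heart it is joined by the endocardium, the inner lining of the chambers, which also gives rise to the valve cushions. At this stage the coronary plexus is spreading through the ventricular wall. Vascular endothelial growth factor, angiopoietin, apelin and adrenomedullin signals act on receptors of these cells, claudin and cadherin junctions seal them, and transcription factors of the ETS, SOXF and KLF families set their identity. In a bulk sample, fewer cells of a type and less RNA per cell cannot be told apart.

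The knockout library held 38.9 M uniquely mapped reads and the wild-type library 39.6 M, and the members had between 170 and 12092 reads in a library. Srsf10 had 1.45 RPKM (reads per kilobase of gene length and per M mapped reads) in the knockout library and 35.3 RPKM in the wild-type library, 24.3-fold lower (21.2 to 28.0). The cardiac actin Actc1 stood at 5799 RPKM in the knockout library and 6350 RPKM in the wild-type library. Summed over 4 Y-linked genes, the knockout library had 7 reads and the wild-type library 2943, so that sex and genotype cannot be told apart here. Apln is X-linked, and over the 420 expressed X-linked genes the log2 ratio had a median of 0.01.

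As a set the endothelial genes were a little lower in the knockout library, and the lower values were uneven across them. All 36 passed the filter of at least 1 RPKM in one library. On the log2 scale of RPKM + 1, knockout over wild type, their median was -0.14, against -0.01 for all 12329 genes that passed the filter. Of the members 26 lay below 0, where 51.8% of all genes lay below 0, and 10 lay above 0, where 48.2% of all genes did. A difference of at least 1.2-fold was seen for 11 members in the lower direction (10.4% of all genes) and for 2 in the higher direction (10.1% of all genes).

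The 3 members at least 1.5-fold lower on that scale were Apln, Cldn5 and Aplnr, where 1.44% of all genes were that much lower. No member was at least 1.5-fold higher, where 1.52% of all genes were. No member reached 2-fold, where 0.333% of all genes were at least 2-fold lower and 0.211% higher. The pseudocount of 1 compresses the ratio of genes at a few RPKM. By the read ratio without a pseudocount, chosen after the data were seen, 5 members were at least 1.5-fold lower (3.01% of all genes), Robo4 and Angpt2 being added, and none was as much higher (3.54% of all genes). With a pseudocount of 5 no member was 1.5-fold lower. The counting interval of the read ratio lay below 1 for 21 members (31.6% of all genes), above 1 for 9 (28% of all genes) and across 1 for 6 (40.4% of all genes). That interval narrows with read number, so these shares also depend on how many reads a gene has.

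**Figure D1:**
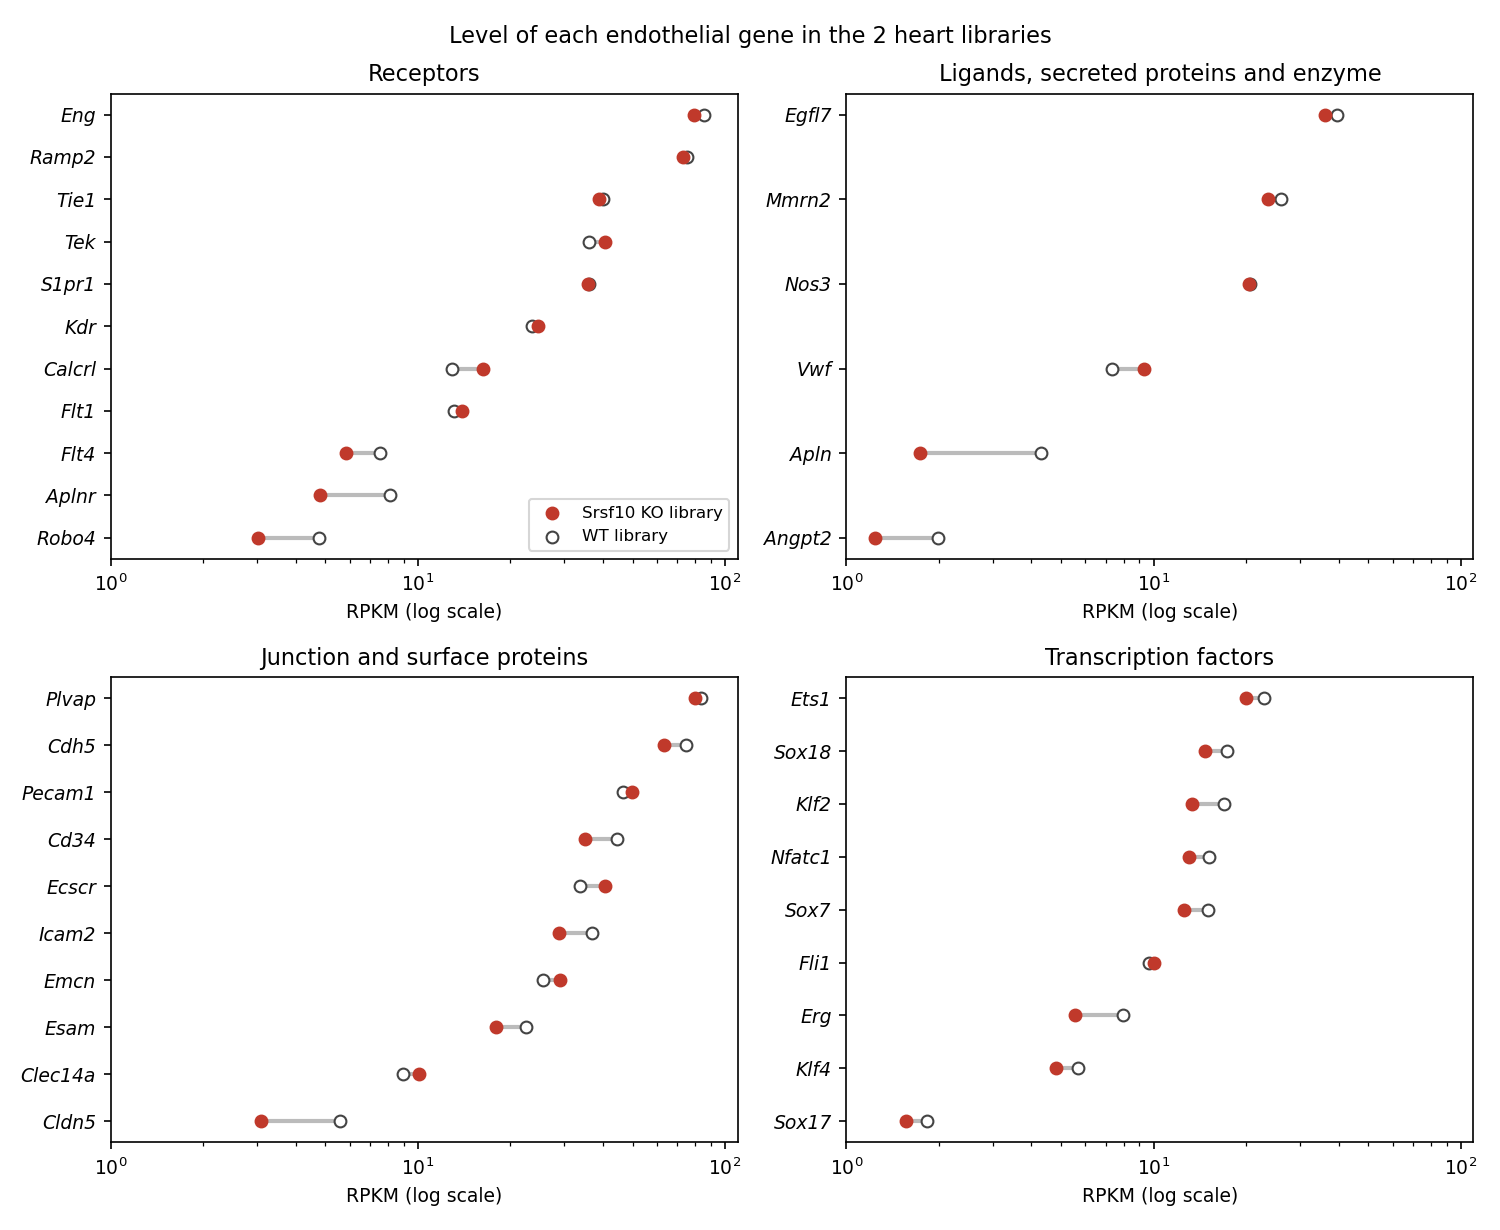
RPKM of each of the 36 endothelial genes, on a log axis, in the Srsf10 knockout library (filled red) and the wild-type library (open), in 4 panels by protein class, with a grey line joining the values of a gene. The widest gaps are those of Apln (1.73 in the knockout, 4.30 in the wild type), Cldn5 and Aplnr, while the most abundant genes, Plvap, Eng and Ramp2, nearly coincide.

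Of the receptors, 7 of 11 lay below 0, where 51.8% of all genes did, with a median log2 ratio of -0.04. Their summed RPKM was 337 in the knockout library and 343 in the wild-type library. Both main receptors of vascular endothelial growth factor A were slightly higher in the knockout. Kdr, the main signalling receptor, had 24.7 RPKM in the knockout library and 23.6 RPKM in the wild-type library, 1.05-fold higher (1.01 to 1.09). Flt1, which also acts as a decoy for the ligand, had 13.9 RPKM in the knockout library and 13.1 RPKM in the wild-type library, 1.07-fold higher (1.02 to 1.12). The third member of this receptor family differed in direction: Flt4, the receptor of growth factor C on lymphatic and sprouting cells, had 5.82 RPKM in the knockout library and 7.56 RPKM in the wild-type library, 1.30-fold lower (1.21 to 1.39). The level of Flt1 relative to Kdr was 0.564 in the knockout library and 0.555 in the wild-type library.

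The Tie receptors, which maintain quiescent vessels and shape the trabeculae, were near the wild-type level. Tek, the angiopoietin receptor, had 40.5 RPKM in the knockout library and 36.04 RPKM in the wild-type library, 1.12-fold higher (1.09 to 1.16). Tie1, its partner, had 39.0 RPKM in the knockout library and 40.0 RPKM in the wild-type library, with a fold interval of 0.991 to 1.06, wild type over knockout. The ligand Angpt2, an antagonist of Tek in most settings, was the least abundant member in the knockout library. This ligand had 172 reads (1.24 RPKM) in the knockout library and 281 reads (1.99 RPKM) in the wild-type library, 1.60-fold lower (1.32 to 1.95). Its log2 ratio of RPKM + 1 was -0.42.

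Apelin and its receptor were both lower. Apln (ENSMUSG00000037010), the ligand, a marker of sprouting tip cells and of coronary endothelium, had 212 reads (1.73 RPKM) in the knockout library and 537 reads (4.30 RPKM) in the wild-type library. That was 2.49-fold lower (2.12 to 2.93), the lowest ratio of the 36, and its log2 ratio of RPKM + 1 was -0.96. Aplnr (ENSMUSG00000044338), the receptor, found on venous endothelium and on sprouts from the sinus venosus, had 664 reads (4.79 RPKM) in the knockout library and 1143 reads (8.10 RPKM) in the wild-type library, 1.69-fold lower (1.53 to 1.86). The log2 ratio of Aplnr was -0.65. A further receptor of low level was lower as well. Robo4 (ENSMUSG00000032125), an endothelial Roundabout receptor linked to barrier stability, had 463 reads (3.02 RPKM) in the knockout library and 745 reads (4.76 RPKM) in the wild-type library, 1.58-fold lower (1.40 to 1.78).

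The adrenomedullin receptor pair did not shift together. Calcrl, the receptor of the pair, had 16.3 RPKM in the knockout library and 12.9 RPKM in the wild-type library, 1.26-fold higher (1.198 to 1.33), the highest log2 ratio of the 36 at 0.32. Ramp2, the subunit that makes it an adrenomedullin receptor, had 73.1 RPKM in the knockout library and 75.3 RPKM in the wild-type library, with a fold interval of 0.987 to 1.07, wild type over knockout. The value of Ramp2 is uncertain. The deposited coverage, the share of a gene's listed length covered by reads, was 50.5% in the knockout library and 53.7% in the wild-type library for Ramp2. In the GENCODE M21 annotation 33.4% of its exon bases also belong to Vps25 on the same strand, and 74.1% of the 31-base words of its longest transcript occur in another gene. Of the other receptors, Eng (endoglin, a co-receptor for ligands of the BMP family) was 1.07-fold lower (1.05 to 1.10). S1pr1, the sphingosine 1-phosphate receptor that stabilises vessels, had 35.8 RPKM in the knockout library and 36.01 RPKM in the wild-type library.

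Of the secreted proteins and the enzyme Nos3, 5 of 6 lay below 0, where 51.8% of all genes did, with a median log2 ratio of -0.13. Apart from Angpt2 and Apln, above, the differences were small or in the other direction. Vwf, the clotting factor stored in endothelial cells and platelets, had 9.34 RPKM in the knockout library and 7.32 RPKM in the wild-type library, 1.28-fold higher (1.21 to 1.34). Egfl7, a matrix-bound factor of sprouting vessels, had 36.3 RPKM in the knockout library and 39.7 RPKM in the wild-type library. Mmrn2, an endothelial matrix protein that binds Clec14a, had 23.5 RPKM in the knockout library and 26.0 RPKM in the wild-type library, 1.11-fold lower (1.06 to 1.16). Nos3, the endothelial nitric oxide synthase, had 20.5 RPKM in the knockout library and 20.6 RPKM in the wild-type library, a difference too small to give a direction. Nos3 shares 25.2% of its exon bases with an annotated gene on the opposite strand, Gm15587, and the use of strand is not given in the sources used here.

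Junction and surface proteins went in opposite directions. Of the 10 genes, 6 were below 0 (51.8% of all genes) and 4 above 0 (48.2% of all genes), with a median log2 ratio of -0.14. Their summed RPKM was 358 in the knockout library and 383 in the wild-type library. Cldn5 (ENSMUSG00000041378), the main claudin of endothelial tight junctions, had 170 reads (3.09 RPKM) in the knockout library and 312 reads (5.57 RPKM) in the wild-type library, 1.80-fold lower (1.49 to 2.18). Cdh5, the cadherin of endothelial adherens junctions, had 63.5 RPKM in the knockout library and 74.5 RPKM in the wild-type library, 1.17-fold lower (1.14 to 1.21). A trio of surface proteins lay between these. Esam, an adhesion molecule at tight junctions, had 18.02 RPKM in the knockout library and 22.5 RPKM in the wild-type library, 1.251-fold lower (1.16 to 1.35). Icam2, a constitutive ligand of leukocyte integrins, had 28.9 RPKM in the knockout library and 37.0 RPKM in the wild-type library, 1.28-fold lower (1.19 to 1.38). Cd34, a sialomucin of capillary endothelium and blood progenitors, had 35.05 RPKM in the knockout library and 44.7 RPKM in the wild-type library, 1.27-fold lower (1.22 to 1.33).

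Of the other surface genes, 4 were above the wild-type level and Plvap was slightly below it. Ecscr, a regulator of endothelial migration, had 40.7 RPKM in the knockout library and 33.8 RPKM in the wild-type library, 1.204-fold higher (1.12 to 1.29). Emcn (endomucin), a sialomucin of venous, capillary and endocardial cells, had 29.1 RPKM in the knockout library and 25.5 RPKM in the wild-type library, 1.14-fold higher (1.09 to 1.19). Clec14a, a lectin-domain receptor of vessels, had 10.1 RPKM in the knockout library and 8.94 RPKM in the wild-type library, 1.13-fold higher (1.05 to 1.21). These were followed by Pecam1, the adhesion molecule used most often to stain vessels. It had 49.9 RPKM in the knockout library and 46.5 RPKM in the wild-type library, 1.07-fold higher (1.04 to 1.11). Plvap, which forms the diaphragms of fenestrae and caveolae and is high in the endocardium, had 80.0 RPKM in the knockout library and 83.6 RPKM in the wild-type library, 1.04-fold lower (1.01 to 1.08). The pan-endothelial genes Pecam1 and Cdh5 thus lay on opposite sides of 1 with intervals that did not overlap.

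**Figure D2:**
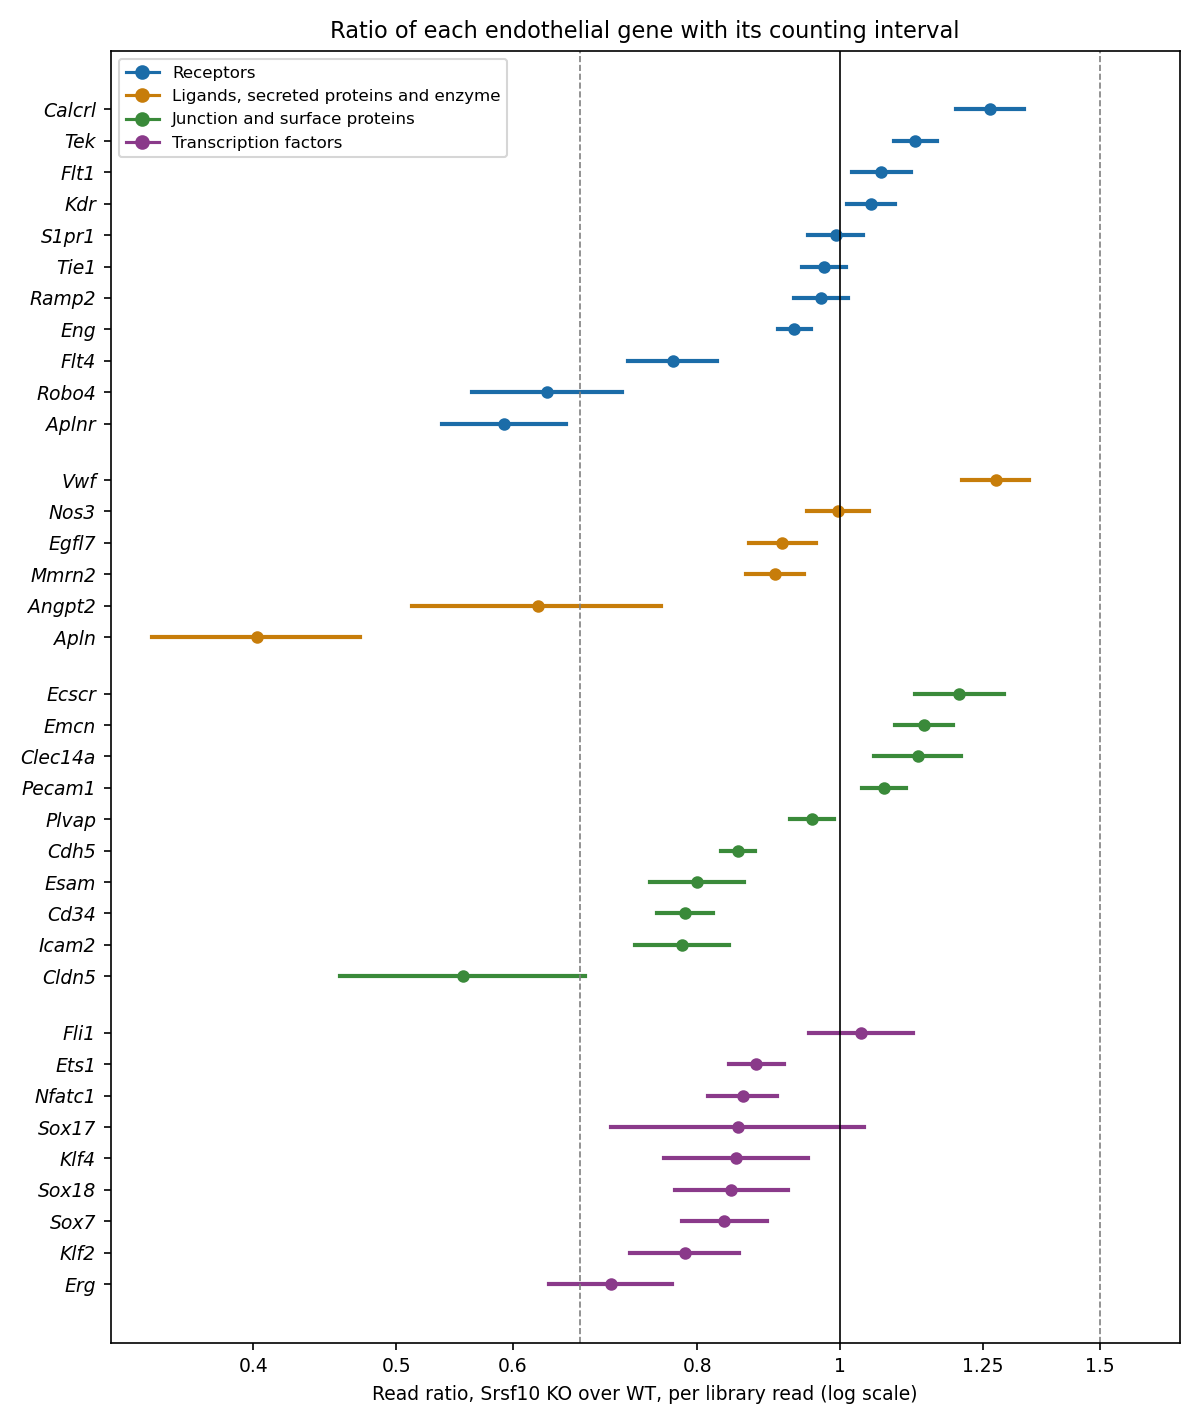
Read ratio of each endothelial gene, Srsf10 knockout over wild type per library read, on a log axis, ordered within 4 coloured classes, with exact 95% counting intervals as bars, a solid line at 1 and dashed lines at 1.5-fold in each direction. Apln lies lowest, 8 of the 9 transcription factors lie left of 1, and junction genes lie on both sides.

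Transcription factors had the lowest median of the 4 classes. Of the 9 factors 8 lay below 0, where 51.8% of all genes did, with a median log2 ratio of -0.21 and a range of -0.45 to 0.04. An interval below 1 was found for 7 factors, and for 31.6% of all genes. Their summed RPKM was 95.5 in the knockout library and 112 in the wild-type library, a ratio of 0.849. Erg, an ETS factor that maintains junctions and vessel identity, had 5.54 RPKM in the knockout library and 7.93 RPKM in the wild-type library, 1.43-fold lower (1.30 to 1.58). Klf2, which responds to blood flow, had 13.3 RPKM in the knockout library and 17.0 RPKM in the wild-type library, 1.27-fold lower (1.17 to 1.39).

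The SOXF genes, which encode 3 related factors of arterial and lymphatic development, had similar ratios. Sox7 had 12.6 RPKM in the knockout library and 15.1 RPKM in the wild-type library, 1.198-fold lower (1.12 to 1.28). Sox18 had 14.7 RPKM in the knockout library and 17.4 RPKM in the wild-type library, 1.18-fold lower (1.08 to 1.29). Sox17, the arterial member and the least abundant, had 190 reads in the knockout library and 227 in the wild-type library, with a wild type over knockout interval of 0.963 to 1.43 that holds 1. Of its exon bases 16.8% lie in an annotated gene on the opposite strand. The remaining factors were close to the class median or above it. Nfatc1, the calcineurin-dependent factor that marks the endocardium, had 13.005 RPKM in the knockout library and 15.1 RPKM in the wild-type library, 1.16-fold lower (1.10 to 1.23). Klf4, a relative of Klf2, was 1.18-fold lower (1.05 to 1.32), and Ets1 1.14-fold lower (1.09 to 1.19). Fli1, an ETS factor shared with blood cells, was the exception, with 10.02 RPKM in the knockout library and 9.70 RPKM in the wild-type library and a knockout over wild type interval of 0.953 to 1.12.

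The size of the difference varied with level. The median log2 ratio was -0.37 over the 12 members with a mean RPKM under 10, with 9 below 0, and -0.08 over the 24 more abundant members, with 17 below 0. Over all genes the medians were 0.02 under a mean RPKM of 10 and -0.03 above it. Of all genes, 2836 of 6228 under a mean RPKM of 10 lay below 0, and 3550 of 6101 more abundant genes did. All 3 members at least 1.5-fold lower were in the group under 10, where 1.8% of all genes were that much lower, against 1.07% of the more abundant genes. Vwf, Clec14a and Fli1, also in that group, lay above 0, though the counting interval of Fli1 held 1.

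**Figure D3:**
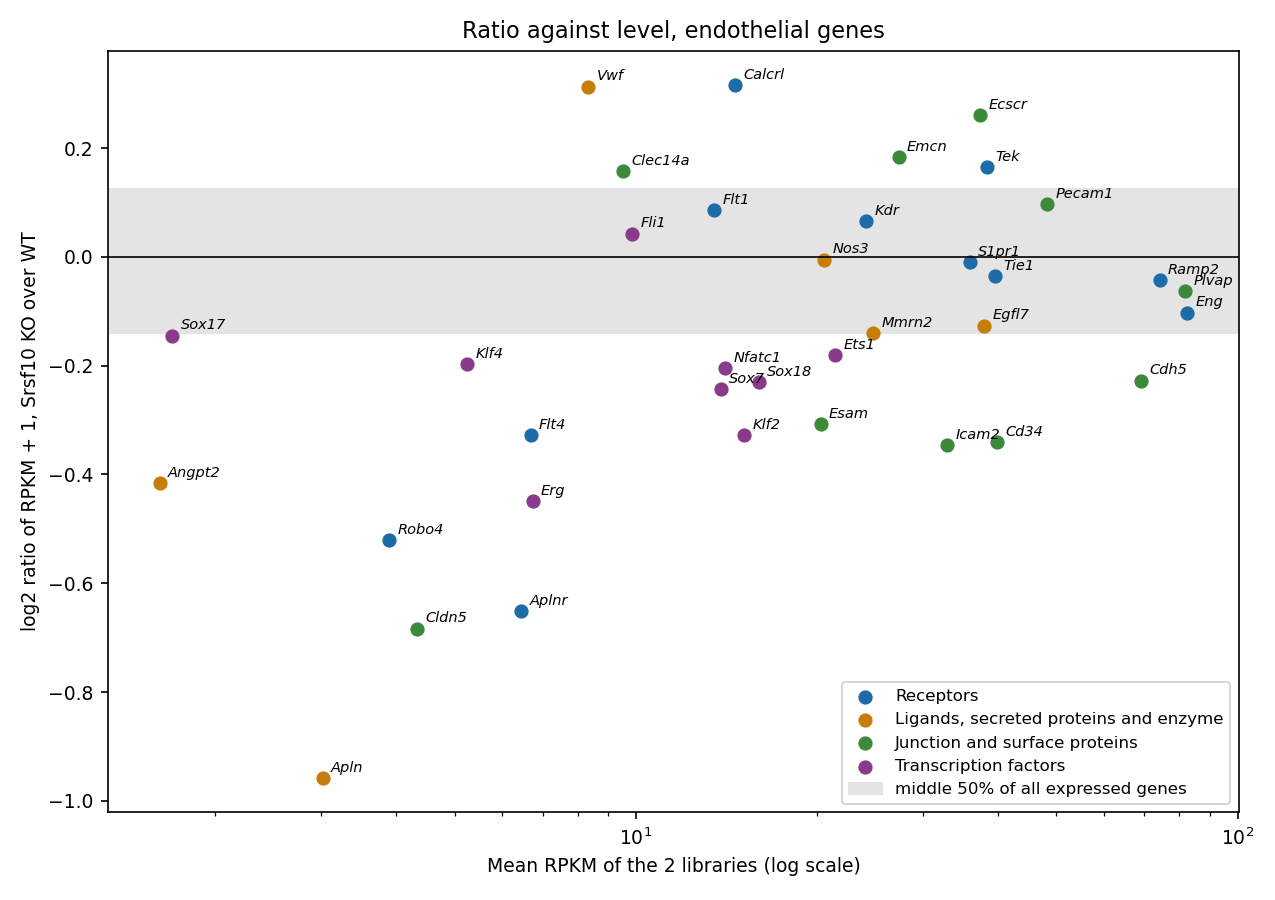
Log2 ratio of RPKM + 1, Srsf10 knockout over wild type, against the mean RPKM of both libraries on a log axis, with each endothelial gene labelled and coloured by class. The grey band marks the quartiles of all expressed genes (-0.14 to 0.13), and the lowest points, Apln at -0.96, Cldn5 at -0.68 and Aplnr at -0.65, lie at a mean RPKM under 10.

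Upstream sequence was looked up for the members, to count short motifs of the ETS, SOX and KLF families. The RefSeq promoter table (GRCm38.p6) had windows for 17 of the 36 members, 21 windows in all, with 3 each for Egfl7 and Erg. Aplnr, Angpt2 and Vwf are among the 19 members whose windows were not analysed here. In each window the 250 bases before the start were searched on both strands. The sequences of 3 members with lower read ratios (Apln, Robo4 and Cldn5) and of the member with the highest log2 ratio (Calcrl) are shown 5′ to 3′ on the gene's strand, with matches to the ETS motif CNGGAAG, on either strand, in capitals.
Apln, chrX:48034854-48035103, minus strand: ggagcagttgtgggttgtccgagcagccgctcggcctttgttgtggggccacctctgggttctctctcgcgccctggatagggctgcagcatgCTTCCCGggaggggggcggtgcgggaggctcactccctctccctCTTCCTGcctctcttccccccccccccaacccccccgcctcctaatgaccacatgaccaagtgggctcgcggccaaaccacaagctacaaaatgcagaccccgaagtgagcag
Robo4, chr9:37401722-37401971, plus strand: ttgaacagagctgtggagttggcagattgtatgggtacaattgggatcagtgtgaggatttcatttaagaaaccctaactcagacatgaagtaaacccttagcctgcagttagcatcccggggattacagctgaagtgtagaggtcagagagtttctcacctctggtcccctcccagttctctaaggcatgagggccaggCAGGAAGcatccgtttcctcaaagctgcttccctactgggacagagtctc
Cldn5, chr16:18776597-18776846, plus strand: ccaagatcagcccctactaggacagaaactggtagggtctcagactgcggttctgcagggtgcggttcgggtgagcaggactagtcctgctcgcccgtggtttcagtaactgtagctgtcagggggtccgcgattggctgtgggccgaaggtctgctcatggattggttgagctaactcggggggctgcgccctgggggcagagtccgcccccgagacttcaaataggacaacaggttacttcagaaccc
Calcrl, chr2:84425267-84425516, minus strand: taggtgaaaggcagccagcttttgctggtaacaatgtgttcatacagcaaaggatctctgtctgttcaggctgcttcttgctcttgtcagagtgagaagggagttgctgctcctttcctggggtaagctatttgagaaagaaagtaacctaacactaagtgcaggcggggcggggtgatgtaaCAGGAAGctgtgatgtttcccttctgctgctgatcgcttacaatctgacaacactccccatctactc
Apln had 2 matches, Robo4 and Calcrl 1 each, and Cldn5 none. The motif was present in 61.9% of member windows, against 26.6% of all 32851 windows. The SOX motif AACAAT was present in 19.0% of member windows and 9.42% of all windows, and the KLF motif CCNCNCCC in 76.2% of member windows and 45.9% of all windows. The G and C content had a median of 58.4% in member windows and 52.4% in all windows. Matches to different motifs shared bases in 1 member window. A match is a run of letters and not a known site. Members with an ETS match and members without one lay on both sides of a read ratio of 1. A link between the motifs and the ratios was not tested.

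Other vessel genes were grouped by subtype, leaving out members. As a reference for the counts in these lists and in the marker lists further on, 51.8% of all genes lay below 0 and 48.2% above 0. At least 1.5-fold lower on the RPKM + 1 scale were 1.44% of all genes, and 1.52% were as much higher. Capillary, coronary and tip cell genes had the lowest median among these lists, -0.33 over 17 genes, with 13 below 0, 5 at least 1.5-fold lower and none as much higher on the RPKM + 1 scale. With its member Apln the capillary list had a median of -0.36, and of -0.17 with a pseudocount of 5. When only genes of at least 5 RPKM were kept, which leaves out Apln, the median was -0.25. By the read ratio 6 genes other than Apln were at least 1.5-fold lower (3.01% of all genes) and 1 as much higher (3.54% of all genes). Fabp4, the fatty acid-binding protein of capillaries, adipocytes and macrophages, had 14.6 RPKM in the knockout library and 54.6 RPKM in the wild-type library. Igfbp3, a secreted binding protein of insulin-like growth factors, had 14.0 RPKM in the knockout library and 27.4 RPKM in the wild-type library, 1.96-fold lower (1.84 to 2.10). Cav1, the coat protein of caveolae, had 44.4 RPKM in the knockout library and 68.2 RPKM in the wild-type library, 1.53-fold lower (1.48 to 1.59). The list also holds genes that other cells of the heart express, and not every gene of it was low. Lpl, the lipoprotein lipase and the most abundant of the list, had 81.0 RPKM in the knockout library and 79.7 RPKM in the wild-type library. The tip cell gene Esm1, the endothelial homeobox gene Meox2 and the capillary genes Gpihbp1 and Car4 were picked after their values were seen. Esm1 had 33 reads in the knockout library and 87 in the wild-type library, Meox2 had 49 reads in the knockout library and 124 in the wild-type library, and Gpihbp1 had 43 reads in the knockout library and 82 in the wild-type library. Car4, a carbonic anhydrase, went the other way, with 87 reads in the knockout library and 56 in the wild-type library, 1.58-fold higher (1.12 to 2.26). Esm1 and Meox2 passed the filter through the wild-type library only, and Meox2 is among the 5 genes at least 1.5-fold lower.

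Genes of the endocardium and of cushion signalling lay the other way. Over 15 genes that are not members the median was 0.09, with 10 above 0, 1 at least 1.5-fold higher and none as much lower. Nrg1, the neuregulin that the endocardium sends to the trabeculae, had 328 reads (4.01 RPKM) in the knockout library and 184 reads (2.21 RPKM) in the wild-type library, 1.82-fold higher (1.51 to 2.19). Npr3, a natriuretic peptide receptor high in the endocardium, Gata5, a factor of endocardial development, and Tgfb2, a cushion growth factor, were named after their values were seen. Npr3 was 1.07-fold higher (1.04 to 1.10) and Gata5 1.41-fold higher (1.32 to 1.505). Against this, Tgfb2 was 1.37-fold lower (1.32 to 1.43), and the members Nfatc1 and Plvap, which belong to this list too, were both below 0. The list also holds genes that heart muscle or mesenchyme express.

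Arterial and Notch pathway genes had a median of -0.13 over 17 genes, with 11 below 0 and none at least 1.5-fold different on the RPKM + 1 scale. Sema3g, among the 11, passed the filter through the wild-type library only. Cxcr4, the chemokine receptor of sprouting arteries and of leukocytes, had 3.45 RPKM in the knockout library and 5.40 RPKM in the wild-type library, 1.57-fold lower (1.33 to 1.85). Dll4, the Notch ligand of tip cells and arteries, named after its value was seen, was 1.52-fold lower (1.37 to 1.695). Gja4 and Gja5 encode arterial connexins, and Gja5 is also made in atrial and trabecular muscle. Gja4 was 1.35-fold higher (1.24 to 1.47), and Gja5, the most abundant of the list, had 57.2 RPKM in the knockout library and 56.5 RPKM in the wild-type library. The 3 venous genes that are not members were all below 0, with a median of -0.23. Ephb4, the venous ephrin receptor, was 1.11-fold lower (1.07 to 1.16). Lymphatic genes had a median of 0.06 over 6 genes, with Prox1, the lymphatic and heart muscle factor, at 15.1 RPKM in the knockout library and 14.5 RPKM in the wild-type library.

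The ligands that act on endothelial receptors went both ways, with a median of 0.06 over 13 genes, 8 of them above 0 and 5 below. Angpt1, the agonist of Tek made by heart muscle, had 33.3 RPKM in the knockout library and 21.5 RPKM in the wild-type library, 1.55-fold higher (1.48 to 1.61). Of the 31-base words of Angpt1, 16.7% occur in other genes, which makes its value less certain. Its level was 26.8 times that of Angpt2 in the knockout library and 10.8 times in the wild-type library. Bmp10, the trabecular ligand of the endoglin receptor complex, had 41.9 RPKM in the knockout library and 24.5 RPKM in the wild-type library, 1.71-fold higher (1.59 to 1.83). Vegfb, the most abundant ligand by the mean of both libraries, had 69.9 RPKM in the knockout library and 100.5 RPKM in the wild-type library, 1.44-fold lower (1.38 to 1.502). Vegfa, named after its value was seen, was 1.13-fold higher (1.09 to 1.17).

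A broader list of pan-endothelial genes had a median at the level of all genes, but a lower sum in the knockout library. Over 42 genes that are not members its median was 0.00, with 20 below 0 and 22 above 0. At least 1.2-fold lower were 4 (10.4% of all genes), and 3 were as much higher (10.1% of all genes). The lower median of the 36 members was not seen in these genes, although the difference between the lists was not tested. Their summed RPKM was 790 in the knockout library and 842 in the wild-type library. That is a ratio of 0.938, against 0.942 for the summed RPKM of the 36 members. Col4a1, a basement membrane collagen and the most abundant, had 86.2 RPKM in the knockout library and 117 RPKM in the wild-type library, 1.36-fold lower (1.34 to 1.38). Col4a2, another collagen gene, named after its value was seen, had 61.6 RPKM in the knockout library and 80.0 RPKM in the wild-type library. Most of the gap between the sums of this list lies in Col4a1 and Col4a2, so its ratio of 0.938 does not describe the list as a whole. Grrp1, a small gene enriched in vessels, had 5.41 RPKM in the knockout library and 3.23 RPKM in the wild-type library, 1.67-fold higher (1.37 to 2.05). The list of shear stress, nitric oxide and KLF target genes had a median of -0.14 over 8 genes that are not members, with 5 below 0. Cyp1b1, among the 5, passed the filter through the wild-type library only. Slc9a3r2, a scaffold protein and the most abundant there by the mean of both libraries, was 1.21-fold lower (1.14 to 1.30).

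**Figure D4:**
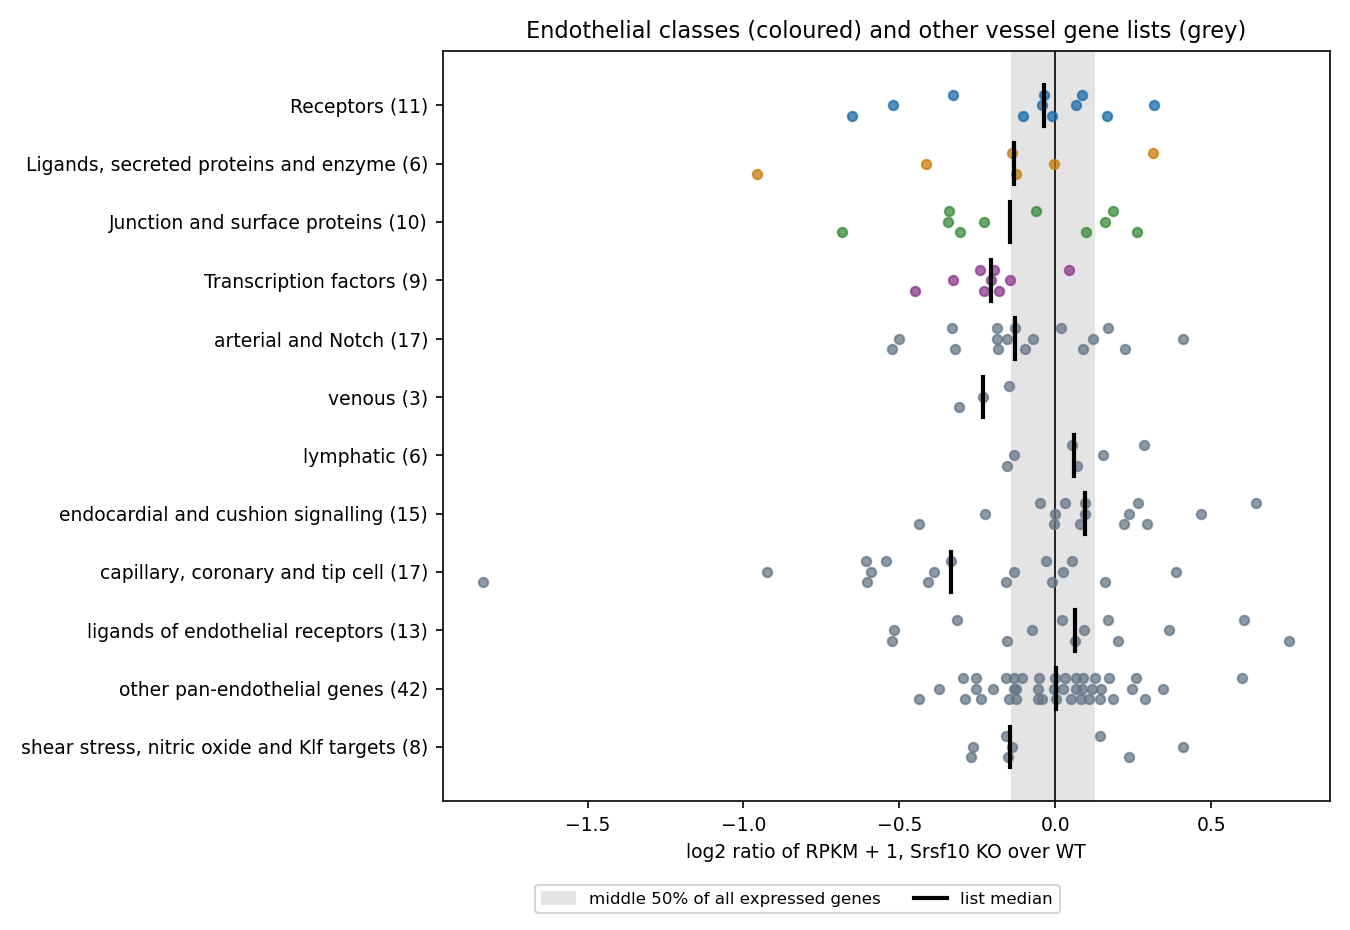
Log2 ratio of RPKM + 1, Srsf10 knockout over wild type, for the 4 classes of the 36 endothelial genes (coloured) and 8 lists of other vessel genes without members (grey), with 1 point per gene, list medians as black bars and the number of genes in brackets. The capillary, coronary and tip cell list is centred at -0.33 and the endocardial list at 0.09.

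Markers of other cell types also differed between the libraries, and their part in the endothelial values was not tested. Leukocyte markers were higher in 11 of 13 expressed genes, with a summed RPKM of 112 in the knockout library and 85.8 in the wild-type library. Itgam, among the 11, passed the filter through the knockout library only. Fcgr3, an Fc receptor of macrophages, was 1.92-fold higher, Cd68, a macrophage lysosomal protein, 1.64-fold higher, and Lyz2, the most abundant, 1.40-fold higher. Megakaryocyte and platelet markers were higher in 6 of 8 genes, with a summed RPKM of 23.8 in the knockout library and 19.2 in the wild-type library. Treml1, higher, passed the filter through the knockout library only, and Gp1bb, lower, through the wild-type library only. Pf4, the platelet chemokine, had 8.60 RPKM in the knockout library and 6.25 RPKM in the wild-type library, and the platelet glycoprotein gene Gp9 had 65 reads in the knockout library and 37 in the wild-type library. Blood cells or platelets also express 10 of the members, Pecam1, Fli1, Vwf and Cd34 among them. These 10 had a median of -0.19 and the other 26 one of -0.13.

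Fibroblast and cushion mesenchyme markers were below 0 in all 8 genes, with a median of -0.42 and a summed RPKM of 637 in the knockout library and 891 in the wild-type library. The collagen genes Col1a1 and Col1a2 were 1.51-fold and 1.53-fold lower, and Dcn, a matrix proteoglycan, 1.55-fold lower. Mural cell markers had a median of -0.05, with 5 of 8 below 0, namely Pdgfrb, Rgs5, Cspg4, Kcnj8 and Notch3. Acta2, smooth muscle actin, which embryonic heart muscle expresses too, had 1024 RPKM in the knockout library and 818 RPKM in the wild-type library. Tagln, another smooth muscle protein also made by embryonic heart muscle, was 1.86-fold higher, with 53.8% of its 31-base words shared with other genes. Epicardial markers were above 0 in 5 of 7 genes with a median of 0.28, Upk3b being 1.22-fold and Aldh1a1 1.79-fold higher. Cardiomyocyte markers were below 0 in 8 of 10 with a median of -0.07, Myl3 being 1.33-fold lower. Erythroid markers went both ways among the 4 of 8 that passed the filter, 2 of 4 being above 0, with Hbb-y 1.09-fold lower and Epb42 1.40-fold higher. Epb42 passed the filter through the knockout library only. The erythroid median was 0.00 with the filter and 0.15 without it. Of the genes below the filter, Gata1, Rhag and Klf1 had more reads in the knockout library and Hemgn fewer. Hepatocyte markers had 46 summed reads over 3 expressed genes in the knockout library and 272 in the wild-type library, with Afp at 4 reads in the knockout library and 145 in the wild-type library and Apoa2 at 42 in the knockout library and 39 in the wild-type library. Alb had 0 reads in the knockout library, which allows up to 3, and 88 in the wild-type library. Alb and Afp passed the filter through the wild-type library only. The median of the hepatocyte list was -1.06 with the filter and -0.26 without it. Of the genes below the filter, Ttr had 34 reads in the knockout library and 22 in the wild-type library, while Apoa1 and Serpina1a had fewer in the knockout library.

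**Figure D5:**
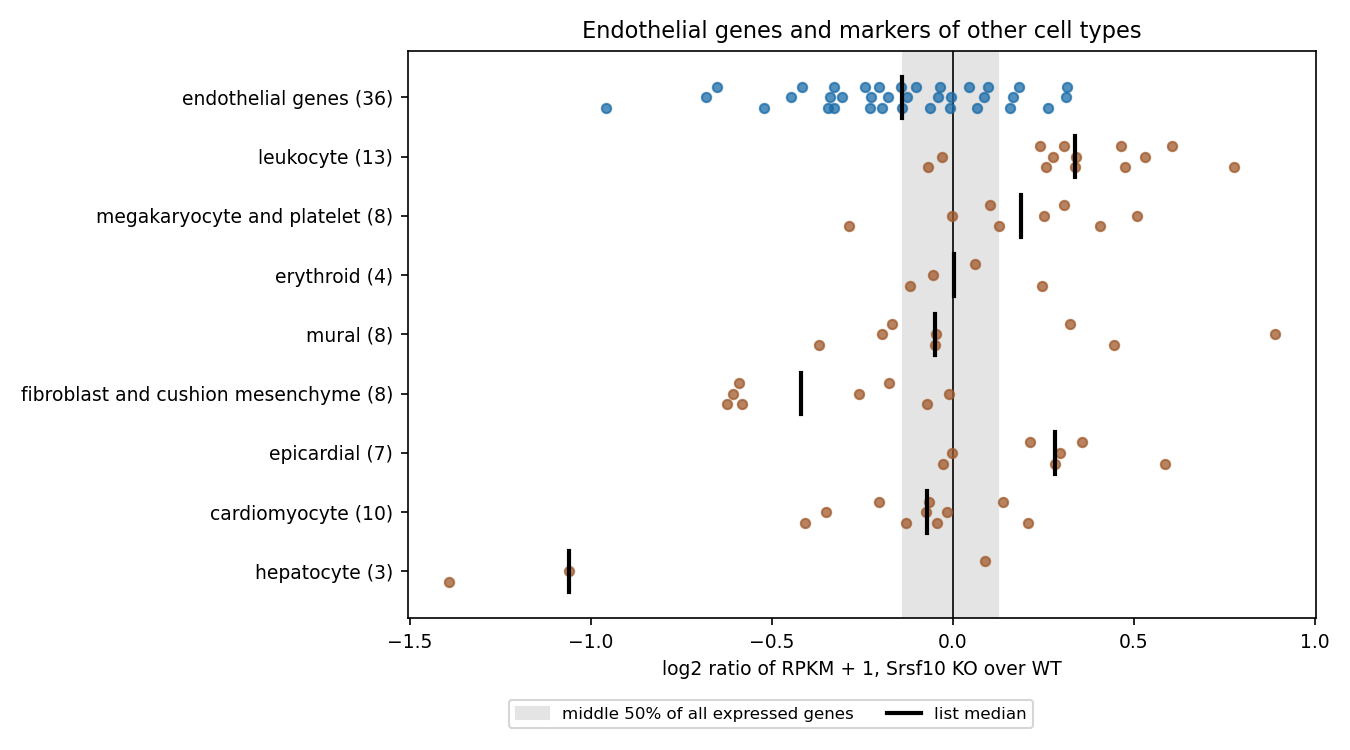
Log2 ratio of RPKM + 1, Srsf10 knockout over wild type, for the 36 endothelial genes (blue) and 8 marker lists of other cell types (brown), with 1 point per expressed gene, list medians as black bars and numbers of genes in brackets. Leukocyte markers are centred at 0.34, fibroblast and cushion markers at -0.42 and the endothelial genes at -0.14.

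Srsf10 lies on chromosome 4 in the GRCm38 annotation, as do Tek, Tie1 and Klf4. The median log2 ratio was -0.04 over these 3 members and -0.14 over the other 33, while all 776 expressed genes of that chromosome had a median of -0.01. The deposited coverage had a median of 98.0% of the listed length over the members in the knockout library and 98.0% in the wild-type library. Leaving out Ramp2, the lowest value was 74.4% in the knockout library, for Sox17, and 83.7% in the wild-type library, for Angpt2.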

How the data were processed

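Total RNA from hearts of mouse embryos was sequenced, 1 library of the Srsf10 knockout and 1 of the wild type, grouped by the genotype in the labels. The submitters' processing notes name the aligner Bowtie (0.12.2) and the build mm9, while strand handling, filtering of reads and the release of the gene models were not given in the sources used here. A deposited count is the number of uniquely mapped reads of an Ensembl gene, per the file headers. The authors also deposited RPKM, computed on the listed gene length and the library's total. A deposited coverage column gives the percent of the listed length covered. Genes that only one table lists were given 0 reads in the other.

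Symbols came from a gene name table, matched on Ensembl identifier for 17196 of 17646 genes. Log2 ratios of RPKM + 1, knockout over wild type, were computed for genes with at least 1 RPKM in one library. The counts were not put to edgeR's or another test because, with a single library of each genotype, nothing is left to estimate the spread from. Without molecular identifiers, reads can be copies of one molecule, so intervals cover counting error only. Ratios of reads and Clopper-Pearson 95% intervals (SciPy 1.17.1, Python 3.11.15) were tested on simulated data for 1000 of 12329 genes, where 95.1% of intervals held the true ratio. The simulated counts carried counting error only (Poisson), which is what the interval assumes. The simulation therefore checks the computation and cannot show the spread between embryos or libraries. TMM factors came from edgeR 4.0.16. All members were named. Of every other list, the rule named the most abundant gene, the expressed gene with the largest absolute log2 ratio and each gene of at least 5 RPKM in one library that differed at least 1.5-fold. Marker lists hold genes that other cells express too. The members, their classes and the lists were chosen with earlier results of these data known.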

Additional observations from a re-analysis of the deposited data

How the results depend on the processing

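The median log2 ratio of the endothelial genes lay between -0.17 and -0.11 under the alternatives run, and the medians of the 4 classes were below 0 under TMM, median ratio and upper quartile scaling, the other pseudocounts and filters and the read ratio. Scaling by edgeR TMM, by the median ratio or by the upper quartile moved the median of all genes by at most 0.02 on the log2 scale. S1pr1 and Nos3 changed direction under upper quartile scaling and with a total that leaves out mitochondrially encoded genes, and no other member changed direction under any setting run. The number of members at least 1.5-fold lower was 3 in the report, 5 with a pseudocount of 0.1, 5 by the ratio of reads without a pseudocount and 0 with a pseudocount of 5. The numbers at least 1.2-fold lower and higher were 11 and 2 in the report and 7 and 0 with a pseudocount of 5. A larger pseudocount pulls the ratios of genes at a few RPKM towards 0 by its construction. The lymphatic list with its members had a median of 0.05, of -0.13 when only genes of at least 5 RPKM were kept and of -0.04 with no filter. The medians of the lists of receptor ligands (-0.03 to 0.06), other pan-endothelial genes (-0.00 to 0.02) and erythroid markers (-0.06 to 0.15), with members, lay on both sides of 0 across settings.

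No paired analysis was possible because each group has 1 library and the result comes from no test. Leaving out a library would leave a group empty. Depth limits Apln, Angpt2, Cldn5 and Sox17 most, with 170 to 537 reads per library.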
